A study of Mus musculus with 26 samples.

Results

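The lipid droplet and fat uptake genes described here are 10 mouse genes: Pparg, Cd36, Fabp4, Mogat1, Plin2, Plin4, Plin5, Cidea, Cidec and G0s2. They were chosen by symbol, as the rows of the deposited gene count table whose Ensembl identifier maps to each name, and all 10 were found among its 47643 genes. Their messenger RNA was measured by RNA sequencing of mouse liver in 26 libraries that form 10 groups and 5 comparisons, each treated group with its own control. Mice of the wild type were given TCPOBOP, an agonist of the xenobiotic receptor CAR (2 libraries), or corn oil (2 libraries), at 8 weeks of age. The sample titles put the TCPOBOP livers at 36 h after injection, although a second label gives a shorter time. Livers of Fxr-/- Shp-/- mice, which lack the bile acid receptor Fxr and the repressor Shp, were compared with wild type livers at 12 weeks (3 libraries each). In the C3H/HeN strain, aged 8 to 10 weeks, 3 livers taken 48 h after partial hepatectomy (PHx), the surgical removal of part of the liver, were set against 3 sham livers labelled 0 h; no genotype is labelled. Hepatocytes isolated after a 10 h fast from wild type mice on a 60% high fat diet were compared with hepatocytes from mice on chow, at 16 weeks (2 libraries each). Mice with floxed alleles of both Fxr and Shp (fl/fl Fxr fl/fl Shp) were given a cholic acid diet or chow, at 10 to 12 weeks and after a fast of 8 to 10 h (3 libraries each). Both of these groups carry the floxed alleles and the labels name no Cre driver. The first 3 experiments were fed ad libitum and used whole liver, as did the cholic acid experiment, and all mice outside the hepatectomy experiment are labelled C57BL/6J. The labels do not say that replicates are separate animals, so the p-values measure only the spread between these samples.

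A lipid droplet is a core of triglyceride wrapped in a single phospholipid layer and a coat of proteins. A hepatocyte takes up fatty acids through membrane proteins such as Cd36, carries them on binding proteins of the Fabp family, joins them to glycerol with acyltransferases such as Mogat1, and stores the triglyceride in droplets coated by perilipins (Plin2, Plin4, Plin5). Cidea and Cidec sit where droplets touch and let the smaller one pass its fat to the larger, and G0s2 binds and inhibits the droplet lipase Pnpla2. Pparg is the nuclear receptor that drives this programme in adipocytes; it binds DNA as a pair with RXR at a direct repeat of the element AGGTCA with 1 base between the repeats (DR1). It is low in normal liver and is known to be raised in fatty liver.

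The promoter sequences below are shown because the members that moved together in the double knockout and on the high fat diet include genes known as Pparg targets. Plin2, among those shown, was raised in the knockout but did not pass on the high fat diet. Of the searched members raised in the knockout, those with the closest matches are shown. They are RefSeq promoters of the GRCm38.p6 build, from 250 bases before to 50 bases after the gene's start, read 5′ to 3′ in the direction of the gene. RefSeq promoters of 8 of the 10 members were searched, 12 promoters in all. Cidea and Fabp4 were not searched, so the member shares below cover those 8 genes only. The motif searched was this repeat, with any base between its copies, on both strands, and no other motif was searched, so no overlap with another motif arises. Capitals mark the window closest to it. In Cd36, Mogat1 and Plin2 that window matched 10 of the 12 fixed letters, and in the Cidec promoter shown it matched 9. A match of at least 10 letters was present in 3 of the 12 member promoters and in 3.86% of all 32851 promoters, and a match of at least 9 letters in 7 of the 12 and in 24.6% of all. The promoters with at least 9 letters include those of G0s2 and Plin5, which were not called in the knockout. The promoters of Pparg and Plin4, both raised there, and the Cidec promoter not shown matched 8 letters. The number of letters was chosen after the matches were seen, and a match is a description of letters only.
Cd36 (chr5:17835847-17836146, minus strand; window on the opposite strand of the gene): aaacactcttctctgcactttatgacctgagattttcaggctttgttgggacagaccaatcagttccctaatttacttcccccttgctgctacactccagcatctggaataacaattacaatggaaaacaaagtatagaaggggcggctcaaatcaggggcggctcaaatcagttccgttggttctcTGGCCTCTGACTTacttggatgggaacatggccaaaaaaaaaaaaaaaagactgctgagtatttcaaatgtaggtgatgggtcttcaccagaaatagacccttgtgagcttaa
Mogat1 (chr1:78510810-78511109, plus strand; window on the gene's strand): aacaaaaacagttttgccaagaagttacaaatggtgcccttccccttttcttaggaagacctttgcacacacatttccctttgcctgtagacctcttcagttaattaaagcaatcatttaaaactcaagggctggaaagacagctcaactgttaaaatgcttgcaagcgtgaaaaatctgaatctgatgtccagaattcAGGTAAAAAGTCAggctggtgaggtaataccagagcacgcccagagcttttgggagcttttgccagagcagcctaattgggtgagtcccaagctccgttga
Plin2 (chr4:86670010-86670309, minus strand; window on the opposite strand of the gene): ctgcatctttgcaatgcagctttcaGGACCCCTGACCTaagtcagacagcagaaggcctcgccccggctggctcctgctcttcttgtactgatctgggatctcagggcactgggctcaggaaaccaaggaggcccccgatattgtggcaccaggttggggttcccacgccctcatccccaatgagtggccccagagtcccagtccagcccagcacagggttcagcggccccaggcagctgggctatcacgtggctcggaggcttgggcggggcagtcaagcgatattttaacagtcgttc
Cidec (chr6:113435711-113436010, minus strand; window on the opposite strand of the gene): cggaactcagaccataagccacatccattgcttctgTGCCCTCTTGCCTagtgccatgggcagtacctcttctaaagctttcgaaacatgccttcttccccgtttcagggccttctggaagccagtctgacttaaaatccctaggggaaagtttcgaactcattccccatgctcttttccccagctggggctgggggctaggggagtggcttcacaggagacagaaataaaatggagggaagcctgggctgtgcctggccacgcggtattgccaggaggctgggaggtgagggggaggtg

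Reads counted to genes ranged from 13949059 to 70367874 per library, with the deepest libraries in the hepatocyte experiment. Nr0b2, the gene of Shp, had 13, 25 and 39 counts in the knockout libraries and 280, 446 and 226 in wild type. Nr1h4, the gene of Fxr, was lower but well present, with 1421, 1198 and 1356 counts against 2846, 2546 and 1941. Its count covers the whole gene and not the deleted part, so it does not check the Fxr label. The library labelled corn oil 1 went against its label. Cyp2b10, the standard target of CAR, stood at 3786 CPM (read counts scaled to a common library size, by TMM within each experiment) there, at 10.3 CPM in corn oil 2 and at 3465 and 3079 CPM in the TCPOBOP libraries. Alb, the main hepatocyte product, was abundant in every group, and fewer cells of a type and less RNA per cell cannot be told apart in such bulk samples. The share of reads that mapped to several places, and so were counted to no gene, differed with the groups. It was 25.54% to 26.92% in the knockout and 43.22% to 44.13% in wild type, 19.01% to 19.31% in high fat hepatocytes and 23.83% to 24.56% in chow hepatocytes, and 16.58% to 17.62% on cholic acid and 23.78% to 25.08% in its chow controls. Its part in the results was not tested.

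Most of the members tested were raised in the double knockout and in high fat hepatocytes, and few passed the test after hepatectomy, cholic acid or TCPOBOP. A gene was called raised or lowered at a Benjamini-Hochberg adjusted p under 0.05 in edgeR's quasi-likelihood test over all genes tested. In the double knockout 7 of the 9 members tested were raised and 0 lowered, where 40.4% of all genes tested were called in either direction and 21% were raised. Mogat1 passed the filter on low counts there only through the knockout libraries, so it had to differ, and without it 6 of 8 were raised. Every knockout library was above every wild type library for 7 of the 9 members tested, Mogat1 among them, as it was for 26.5% of the genes tested. In high fat hepatocytes 6 of the 9 members tested were raised and 1 was lowered (24% of all genes called, 12.9% raised and 11.1% lowered). Only 1 chow library held Mogat1 above the filter's level, and without Mogat1 5 of 8 were raised and 1 was lowered. The groups did not overlap for the 9 members tested there, 8 above and 1 below, but with 2 libraries a group 35.2% and 33% of all genes tested did the same. After hepatectomy 1 of the 8 members tested was raised and 1 lowered (30.7% of all genes called, 16.4% raised and 14.3% lowered), and 1 member tested lay above and 1 below its control without overlap (24.4% and 22.6% of all genes tested). The lowered member, Cidec, and Pparg were under the filter's level in some libraries there, and without both 1 of 6 was raised and 0 lowered. On cholic acid 0 of 8 were raised and 1 was lowered (4.77% of all genes called, 2.27% raised and 2.5% lowered), and 0 members tested lay above and 2 below without overlap (15.5% and 15.7% of all genes tested). TCPOBOP gave 0 calls among the 8 members tested and among all genes (0%) with edgeR. At an unadjusted p under 0.05 it gave 1 member lowered and 751 genes in all, and DESeq2 called 0 members and 91 genes. Without the library labelled corn oil 1, which went against its label, 1233 genes and 3 members (Pparg, Plin2 and Plin4, all lowered) were called, and without corn oil 2, 413 genes and 1 member (Plin2, lowered), with the lone control assumed to vary like the treated group. With TCPOBOP 1 member tested lay above and 1 below corn oil without overlap (16.8% and 18.7% of all genes tested). In the fit without corn oil 2, here and for each gene below, the only control is the library that went against its label. Its values are therefore no equal check on those of the fit without corn oil 1. The counts of 0 lowered in the knockout and 0 raised on cholic acid were also 0 at an unadjusted p under 0.05 and with DESeq2. The median log2 fold change of the members tested was 1.53 in the knockout, 1.02 on the high fat diet, -0.08 after hepatectomy, -0.25 on cholic acid and -0.53 with TCPOBOP, where that of all genes tested lay between -0.02 and 0.01 in the 5 comparisons. Without Mogat1 the median was 1.32 in the knockout and 0.88 on the high fat diet.

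**Figure D1:**
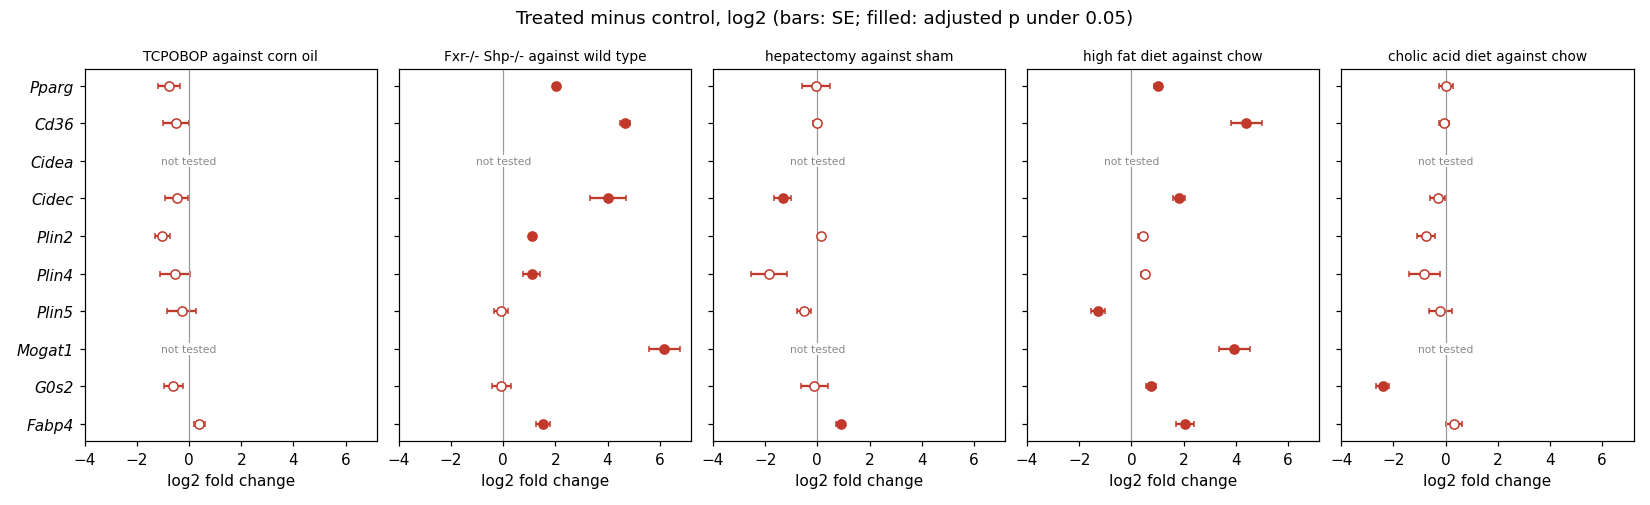
Log2 fold change (horizontal axis, treated over control) of each of the 10 genes in the 5 comparisons, with bars for the standard error and filled symbols for an adjusted p under 0.05. In the knockout panel 7 of 9 tested genes are filled to the right of 0, among them Mogat1, which passed the filter only through the knockout libraries, and in the cholic acid panel the only filled symbol is G0s2 at -2.41.

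Pparg (ENSMUSG00000000440.12; GRCm38 chromosome 6, 115360951 to 115490399) was raised in the double knockout and, less strongly, by the high fat diet. It stood at 25.9, 26.3 and 25.9 CPM in the knockout libraries and at 7.25, 6.14 and 5.74 CPM in wild type. The knockout values had an SD of 0.271 CPM (n = 3) and lay far above every control. The log2 fold change was 2.03 ± 0.12 (SE, n = 3 per group; edgeR adjusted p 6.54e-06). The high fat diet gave 9.37 and 7.42 CPM of Pparg, and chow 4.09 and 4.21 CPM. All high fat values were above all chow values, with a log2 fold change of 1.02 ± 0.16 (SE, n = 2 per group; adjusted p 0.0121), and the call was lost without high fat library 1. On cholic acid the values of 6.64, 9.34 and 7.67 CPM lay within the chow values of 9.29, 5.09 and 8.82 CPM or just above them (log2 0.03 ± 0.27 SE, adjusted p 0.962). In the C3H/HeN mice Pparg was close to the limit of detection. It stood at 0.408, 0.206 and 0.166 CPM after hepatectomy and at 0.131, 0.329 and 0.343 CPM in sham livers, which is 4 to 11 counts per sham library. The lowest level in any C57BL/6J control library was 4.09 CPM. Strain and experiment cannot be told apart in that contrast of levels, and the scaling was set within each experiment. With TCPOBOP Pparg stood at 5.76 and 8.61 CPM, against 7.9 and 16.6 CPM with corn oil (log2 -0.77 ± 0.43 SE, adjusted p 0.898). Without the library labelled corn oil 1 the value was -1.21 (adjusted p 0.0225), and without corn oil 2 it was -0.14 (adjusted p 0.903).

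Cd36 (ENSMUSG00000002944.15; chromosome 5, 17781690 to 17888801, minus strand), the membrane protein that carries long fatty acids into cells, rose in the same 2 conditions as Pparg. In the knockout it stood at 301, 277 and 355 CPM, and in wild type at 9.29, 13.7 and 14.4 CPM. The groups were far apart, with a log2 fold change of 4.65 ± 0.19 (SE, n = 3 per group; edgeR adjusted p 1.01e-06). Hepatocytes of the high fat diet held 203 and 110 CPM, and those of chow 3.43 and 11.3 CPM. Each of those groups had libraries far apart, yet the groups did not overlap (log2 4.40 ± 0.60 SE, n = 2 per group; adjusted p 0.00882). After hepatectomy the values of 16.6, 16.7 and 19.4 CPM lay within the sham values of 20.1, 18.8 and 14.1 CPM (log2 -0.01 ± 0.15 SE, adjusted p 0.97). On cholic acid they were 33.8, 36.4 and 41.8 CPM, within the chow values of 41.9, 29.6 and 46.1 CPM (log2 -0.07 ± 0.20 SE, adjusted p 0.866). With TCPOBOP Cd36 stood at 24.8 and 44.9 CPM, and with corn oil at 29.1 and 69.9 CPM (log2 -0.51 ± 0.50 SE, adjusted p 0.947). The value was -1.0 without corn oil 1 (adjusted p 0.062) and 0.26 without corn oil 2 (adjusted p 0.782).

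Fabp4 (ENSMUSG00000062515.3; chromosome 3, 10204088 to 10208576, minus strand), the fatty acid binding protein best known from adipocytes, macrophages and small vessels, was the 1 member raised in 3 comparisons. In the knockout it stood at 16.8, 12 and 23.1 CPM, and in wild type at 4.89, 4.81 and 8.34 CPM. All knockout libraries were higher (log2 1.53 ± 0.28 SE, n = 3 per group; adjusted p 0.00315). After hepatectomy it stood at 12.6, 9.58 and 9.12 CPM, and in sham livers at 5.91, 5.77 and 5.24 CPM, again without overlap (log2 0.89 ± 0.16 SE, n = 3 per group; adjusted p 0.00432). The hepatocyte experiment had low levels in both groups, 3.13 and 1.84 CPM against 0.482 and 0.71 CPM on chow. The log2 fold change was 2.05 ± 0.36 (SE, n = 2 per group; adjusted p 0.0162), and the call was lost without high fat library 1. On cholic acid Fabp4 overlapped its control, at 13.5, 16.4 and 18.2 CPM against 7.33, 12.4 and 18.5 CPM (log2 0.33 ± 0.31 SE, adjusted p 0.559). With TCPOBOP it was 20.8 and 26.5 CPM against 20.7 and 15.2 CPM with corn oil, just without overlap (log2 0.40 ± 0.22 SE, adjusted p 0.898), and the value was 0.64 without corn oil 1 (adjusted p 0.0811) and 0.19 without corn oil 2 (adjusted p 0.727).

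Some markers of other cells, among them cells that carry Cd36 or Fabp4, were called as well. Of all genes tested, 12.9% were raised and 11.1% lowered on the high fat diet. In the knockout 21% were raised and 19.4% lowered, and after hepatectomy 16.4% and 14.3%. The endothelial and macrophage counts in the knockout and after hepatectomy lay near these shares. In high fat hepatocytes 7 of 7 endothelial markers were raised (summed level 98.5 to 101 CPM, chow 40.2 to 42.3 CPM), as were 5 of 8 macrophage markers (70.7 to 80.5 CPM, chow 44.3 to 44.8 CPM) and 4 of the 5 stellate cell and fibroblast markers tested (33.2 to 33.4 CPM, chow 8.66 to 14.5 CPM). In the knockout 2 of 7 endothelial markers were raised (138 to 205 CPM, wild type 76.8 to 142 CPM), 2 of 8 macrophage markers were raised and 1 lowered (312 to 626 CPM, wild type 209 to 469 CPM), and 4 of 6 stellate cell and fibroblast markers were raised (352 to 436 CPM, wild type 177 to 292 CPM). Also in the knockout, 4 of 5 bile duct markers were raised (57.4 to 135 CPM, wild type 27.3 to 38 CPM). After hepatectomy 1 of 7 endothelial markers was lowered (199 to 209 CPM, sham 185 to 264 CPM) and 1 of 8 macrophage markers was raised (220 to 335 CPM, sham 167 to 288 CPM). The part of these cells in the rise of Cd36 and Fabp4 was not tested. Adipocyte markers were at or near 0 in the same samples. In the knockout the 5 of them summed to 0.302 to 0.366 CPM (wild type 0 to 0.107 CPM), and Lep was at 0. In high fat hepatocytes Retn and Lep were at 0, Adipoq and Plin1 did not exceed 0.0269 CPM, and Cfd was raised at 2.29 to 2.32 CPM (chow 0.0178 to 0.0473 CPM). After hepatectomy all 5 were at 0 (sham sum 0 to 1.11 CPM). With TCPOBOP they were present, with none of the 5 called, and summed to 20.6 to 31.9 CPM (corn oil 15.1 to 16.4 CPM). Of the 4 hepatocyte markers in the table, 1 was lowered in the knockout (62166 to 83440 CPM, wild type 83535 to 110736 CPM), 1 on the high fat diet (81996 to 82806 CPM, chow 82073 to 84740 CPM) and 2 after hepatectomy (91104 to 103036 CPM, sham 120877 to 125430 CPM).

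Mogat1 (ENSMUSG00000012187.13; chromosome 1, 78510991 to 78538173), which adds a fatty acid to monoacylglycerol on the way to triglyceride, went from near absence to a clear signal in the same 2 conditions. In the knockout libraries it had 141, 191 and 263 counts (6.45, 8.87 and 11.3 CPM), and in wild type 6, 0 and 0 counts. The log2 fold change was 6.17 ± 0.60 (SE, n = 3 per group) and is a description, since the filter was passed only through the knockout libraries. Its size rests on 1 control library, since it was 10.46 without wild type 1. The high fat diet gave 2.7 and 2.66 CPM of Mogat1, and chow 0.0357 and 0.3 CPM (log2 3.94 ± 0.59 SE, n = 2 per group). That fold change is a description too, since only 1 chow library exceeded the filter's level, and the value was 6.15 without chow library 2. On cholic acid Mogat1 had 4, 2 and 3 counts, and on chow 18, 17 and 7 counts, which left it under the filter. Every cholic acid library was below every chow library in CPM (0.198, 0.106 and 0.141 against 1.31, 1.14 and 0.498). Without the filter its log2 fold change was -2.65 (adjusted p 0.0222). After hepatectomy it had 10, 2 and 6 counts and in sham livers 0, 3 and 0, a ratio of 6.08 with a 95% counting interval of 1.77 to 32.2, untested for spread between libraries. With TCPOBOP and corn oil it had at most 13 counts. The annotation gives Mogat1 200 exon bases in common with BC035947 on the other strand, and the strand setting of the counting is not given in the sources used here, so reads in that stretch could belong to either gene.

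Plin2 (ENSMUSG00000028494.12; chromosome 4, 86648386 to 86670060, minus strand), the perilipin that coats droplets in most cells, was raised in the knockout. It stood at 511, 530 and 435 CPM there, and at 218, 230 and 233 CPM in wild type. The groups were well apart, with a log2 fold change of 1.12 ± 0.11 (SE, n = 3 per group; edgeR adjusted p 9.23e-05). Hepatocytes of the high fat diet held 671 and 479 CPM of Plin2, above the chow values of 452 and 402 CPM, but the difference did not pass (log2 0.43 ± 0.17 SE, adjusted p 0.119). After hepatectomy it was 191, 171 and 199 CPM against 189, 154 and 164 CPM in sham livers (log2 0.14 ± 0.10 SE, adjusted p 0.323). On cholic acid it was 489, 256 and 551 CPM, below all chow values of 1014, 596 and 559 CPM, without passing (log2 -0.74 ± 0.34 SE, adjusted p 0.229). With TCPOBOP it was 165 and 154 CPM, below the corn oil values of 239 and 415 CPM (log2 -1.03 ± 0.29 SE, adjusted p 0.812, unadjusted p 0.0175). Each fit with 1 corn oil library passed the threshold, with -1.37 without corn oil 1 (adjusted p 0.000627) and -0.58 without corn oil 2 (adjusted p 0.0477). In the second of these fits the lone control is the library that goes against its label.

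Plin4 (ENSMUSG00000002831.13; chromosome 17, 56100591 to 56109803, minus strand) and Plin5 (ENSMUSG00000011305.11; chromosome 17, 56111601 to 56117596, minus strand) are neighbouring genes. Plin4 is a perilipin best known from adipocytes, and Plin5 coats droplets in tissues that burn fat and brings them to mitochondria. Plin4 in the knockout stood at 27.7, 24.8 and 57.8 CPM, above the wild type values of 21.4, 12.5 and 17.7 CPM. The call was weak and rested on single libraries. The log2 fold change was 1.09 ± 0.32 (SE, n = 3 per group; edgeR adjusted p 0.0262), the adjusted p was 0.0938 without wild type 2 and 0.0673 without wild type 3, and the value was 0.61 without knockout 3. After hepatectomy Plin4 was 7.23, 0.737 and 1.85 CPM against 6.47, 14.3 and 14.8 CPM in sham livers. Its log2 fold change of -1.86 ± 0.69 (SE) did not pass (adjusted p 0.0744), but without hepatectomy library 1 it was -3.18 (adjusted p 0.0038). On the high fat diet Plin4 was 31.6 and 25 CPM against 21.6 and 18 CPM on chow, just short of the threshold (log2 0.52 ± 0.15 SE, adjusted p 0.0534). On cholic acid it was 19.7, 8.71 and 14.5 CPM against 33.3, 36.8 and 5.47 CPM on chow (log2 -0.82 ± 0.60 SE, adjusted p 0.448). The third chow library was the lowest of all 6, and without it the value was -1.29 (adjusted p 0.0332). With TCPOBOP Plin4 was 4.7 and 5.84 CPM against 3.75 and 11.6 CPM with corn oil (log2 -0.54 ± 0.56 SE, adjusted p 0.948), and the value was -1.14 without corn oil 1 (adjusted p 0.0262) and 0.49 without corn oil 2.

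Plin5 was the 1 member that the high fat diet lowered. It stood at 41.1 and 39.4 CPM in high fat hepatocytes and at 126 and 68.6 CPM on chow. All high fat values were lower (log2 -1.28 ± 0.27 SE, n = 2 per group; edgeR adjusted p 0.0248), and the call was lost without either high fat library. In the knockout it was 80.3, 75.6 and 144 CPM, overlapping the wild type values of 138, 84.9 and 95 CPM (log2 -0.08 ± 0.26 SE, adjusted p 0.82). After hepatectomy it was 45.7, 28.8 and 33.9 CPM against 31.2, 61.4 and 61.6 CPM in sham livers (log2 -0.51 ± 0.27 SE, adjusted p 0.189). On cholic acid it was 127, 77.5 and 110 CPM against 159, 158 and 43.3 CPM on chow (log2 -0.20 ± 0.44 SE, adjusted p 0.821). With TCPOBOP it was 33.1 and 14.1 CPM, and with corn oil 17.8 and 39.8 CPM (log2 -0.28 ± 0.55 SE, adjusted p 0.981). It was -0.74 without corn oil 1 (adjusted p 0.298) and 0.41 without corn oil 2 (adjusted p 0.731).

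**Figure D2:**
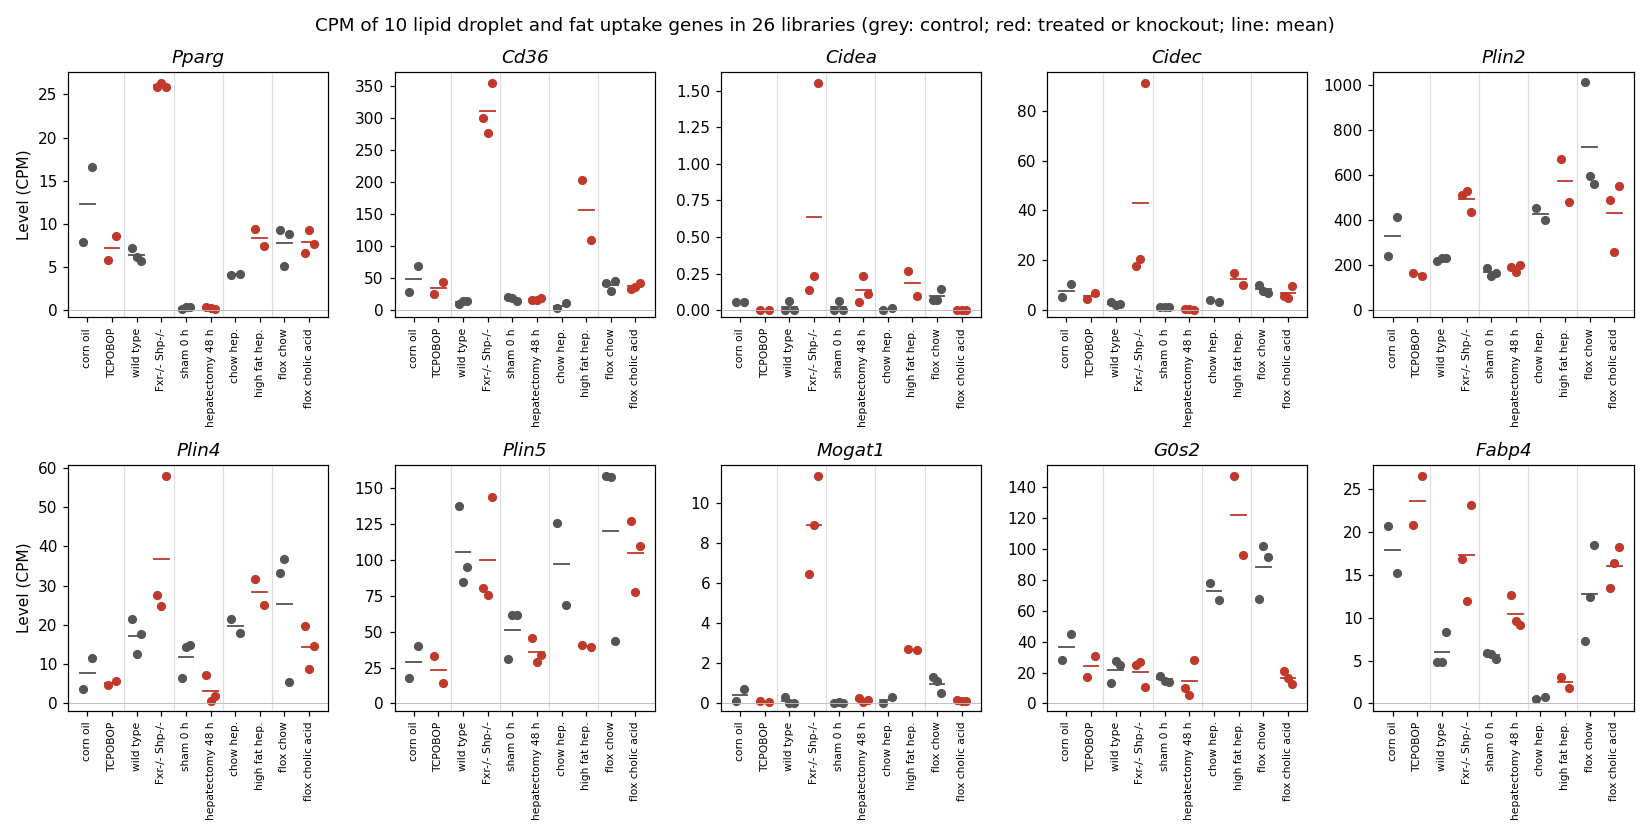
Level of each of the 10 genes in CPM in all 26 libraries, by group, with 1 point per library. Cd36 stands at 277 to 355 CPM in the 3 knockout libraries and at 9.29 to 14.4 CPM in wild type, and Pparg in the C3H/HeN livers lies under 0.5 CPM in every library.

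Cidec (ENSMUSG00000030278.11; chromosome 6, 113424634 to 113435760, minus strand), which enlarges droplets by fusing them, was raised in the knockout and by the high fat diet and lowered after hepatectomy. In the knockout it stood at 17.7, 20.4 and 91 CPM, and in wild type at 3.17, 2.21 and 2.54 CPM. The third knockout library was far above the other two, and all were above wild type (log2 4.02 ± 0.68 SE, n = 3 per group; edgeR adjusted p 0.00208). Without that library the log2 fold change was 2.85 and still called. With the high fat diet Cidec was 14.9 and 10.1 CPM, and on chow 3.93 and 3.14 CPM (log2 1.83 ± 0.23 SE, n = 2 per group; adjusted p 0.00739). After hepatectomy it was 0.583, 0.619 and 0.276 CPM, below the sham values of 1.18, 1.34 and 1.17 CPM (log2 -1.32 ± 0.33 SE, n = 3 per group; adjusted p 0.0183), and the call was lost without sham 2 (adjusted p 0.0727) or sham 3 (adjusted p 0.0551). Cidec exceeded the filter's level there in 3 sham and 2 hepatectomy libraries. On cholic acid it was 5.6, 5.07 and 9.6 CPM, overlapping 10.1, 7.9 and 6.97 CPM on chow (log2 -0.30 ± 0.29 SE, adjusted p 0.574). With TCPOBOP it was 4.35 and 7.04 CPM against 5.17 and 10.6 CPM with corn oil (log2 -0.47 ± 0.44 SE, adjusted p 0.947), and the value was -0.90 without corn oil 1 (adjusted p 0.119) and 0.14 without corn oil 2 (adjusted p 0.921).

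Cidea (ENSMUSG00000024526.8), the relative of Cidec known from brown fat and from fatty liver, did not pass the filter in any comparison. In the knockout it had 3, 5 and 36 counts, and in wild type 0, 1 and 0. The total of 44 counts against 1 is a ratio of 38.6 after scaling for depth, with a 95% interval of 6.58 to 1561 that covers counting error only, and most of it came from the third knockout library. High fat hepatocytes had 20 and 7 counts and chow hepatocytes 0 and 1, a ratio of 24 (interval 3.96 to 984). After hepatectomy the counts were 2, 8 and 4 against 0, 2 and 0 in sham livers, a ratio of 7.09 (interval 1.63 to 64.3). Cholic acid livers had 0 counts in every library and their chow controls 1, 1 and 2, and TCPOBOP livers had 0 against 1 and 1 with corn oil, so no difference was detectable at this depth, where 0 counts allow up to 3 in a library.

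G0s2 (ENSMUSG00000009633.3; chromosome 1, 193272161 to 193273217, minus strand), the inhibitor of the droplet lipase, was the 1 member that cholic acid lowered. It stood at 20.7, 16.4 and 12.8 CPM on cholic acid and at 67.6, 102 and 94.6 CPM on chow. The groups were well apart, with a log2 fold change of -2.41 ± 0.24 (SE, n = 3 per group; edgeR adjusted p 0.00256), and each fit without 1 library kept the call. The high fat diet raised G0s2, which was 147 and 96.2 CPM, above 77.6 and 67.2 CPM on chow (log2 0.75 ± 0.20 SE, n = 2 per group; adjusted p 0.047), a call lost without chow 2 or high fat 1. In the knockout it was 24.6, 26.9 and 10.5 CPM against 13.3, 27.6 and 24.6 CPM in wild type (log2 -0.07 ± 0.36 SE, adjusted p 0.886). After hepatectomy it was 9.94, 5.42 and 27.8 CPM, on both sides of the sham values of 18, 14.8 and 14 CPM (log2 -0.11 ± 0.50 SE, adjusted p 0.886). With TCPOBOP it was 17.3 and 30.8 CPM against 28.1 and 45 CPM with corn oil (log2 -0.60 ± 0.36 SE, adjusted p 0.912), with -0.90 without corn oil 1 (adjusted p 0.0856) and -0.23 without corn oil 2 (adjusted p 0.808). Among markers of other cells on cholic acid, 1 of 8 macrophage markers was raised (262 to 434 CPM, chow 111 to 308 CPM). Of the stellate cell and fibroblast markers 1 of 6 was raised (162 to 262 CPM, chow 98.3 to 181 CPM). Of all genes tested 2.27% were raised. For adipocyte markers 0 of 5 were called (4.11 to 11 CPM, chow 1.89 to 10.3 CPM). The part of these cells in the fall of G0s2 was not tested.

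The effects of the high fat diet were compared with those of the knockout, hepatectomy and cholic acid by testing the difference of the log2 fold changes in 1 fit over the 4 groups involved. The 3 tests share the high fat and chow hepatocyte libraries, and tissue and age differ with the experiment. Strain differs only in the test against hepatectomy. Feeding differs too, since the hepatocyte mice were fasted for 10 h and the knockout and hepatectomy experiments were fed ad libitum. The cholic acid experiment was fasted for 8 to 10 h, and both of its groups carry the floxed alleles of Fxr and Shp. Against the knockout, 2 of the 9 members tested differed and both were lower on the high fat diet (16.1% of all genes called, 7.98% lower and 8.11% higher). None was higher, also at an unadjusted p under 0.05 and with DESeq2. Pparg rose less on the diet than in the knockout, by 1.02 against 2.03, a difference of -1.02 ± 0.19 (SE; edgeR adjusted p 0.00567). The Plin2 difference was -0.70 ± 0.21 (SE; adjusted p 0.0424) and passed in only 2 of the 10 fits that left out 1 library. Cd36, at 4.40 against 4.65, was not separated (difference -0.26 ± 0.57 SE, adjusted p 0.801). Nor were Cidec (difference -2.19 ± 0.89 SE, adjusted p 0.123), Plin5 (-1.19 ± 0.44 SE, adjusted p 0.0949) and Mogat1 (-2.28 ± 1.16 SE, adjusted p 0.209).

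Against hepatectomy, 3 of the 9 members tested had a higher effect on the high fat diet and 0 a lower one (29.2% of all genes called, 15.3% higher and 13.8% lower). The differences were 4.43 ± 0.59 for Cd36 (SE; edgeR adjusted p 0.000593), 3.17 ± 0.41 for Cidec (SE; adjusted p 0.000494) and 1.18 ± 0.37 for Fabp4 (SE; adjusted p 0.0374). Cidec had moved in opposite directions in the 2 experiments, and Fabp4 passed in 3 of the 10 fits without 1 library. Against cholic acid, 4 of the 9 members tested were higher on the high fat diet and 0 lower (6.43% of all genes called, 3.75% higher and 2.68% lower). Both counts of 0 lower effects were also 0 at an unadjusted p under 0.05 and with DESeq2. The differences were 4.49 ± 0.63 for Cd36 (SE; adjusted p 0.00585), 3.17 ± 0.37 for G0s2 (SE; adjusted p 0.00242), 2.14 ± 0.43 for Cidec (SE; adjusted p 0.0211) and 6.65 ± 0.96 for Mogat1 (SE; adjusted p 0.00632). The Mogat1 value rests on 2 to 4 counts per cholic acid library and is no support for the count of 4. Cidec passed in 6 of the 10 fits without 1 library and the other 3 in all 10. Pparg, with a difference of 1.01 ± 0.37 (SE), did not pass (adjusted p 0.124).

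**Figure D3:**
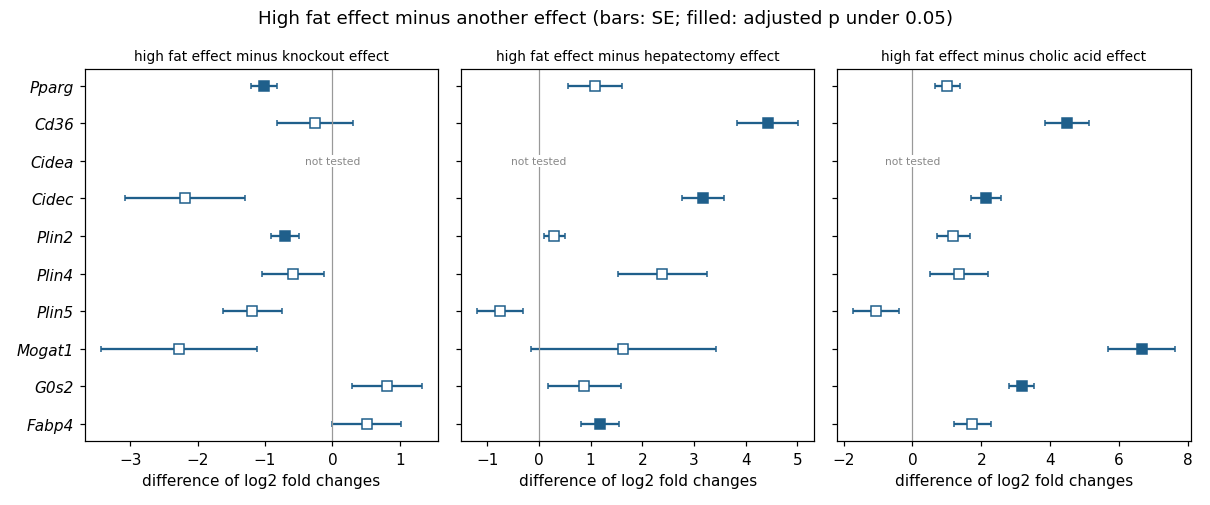
Difference between the high fat effect and the knockout, hepatectomy or cholic acid effect (log2, horizontal axis) for each gene, with standard error bars and filled symbols for an adjusted p under 0.05. Cd36 lies at -0.26 against the knockout and at 4.43 and 4.49 against hepatectomy and cholic acid.

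Other genes of fat storage and use were taken from 6 lists with 71 genes in the table, and changed in both directions. Each gene named from them with a rise or fall passed the same edgeR test. In the knockout 24 of 69 tested were raised and 11 lowered, where 21% and 19.4% of all genes tested were. Among fatty acid uptake and activation genes 8 of 16 were raised and 3 lowered. Vldlr, a lipoprotein receptor, rose from 1.47 ± 0.344 to 28.7 ± 4.37 CPM (SD, n = 3; log2 4.29), and Fabp2, the intestinal type binding protein, fell from 51.1 ± 8.23 to 12.6 ± 1.57 CPM (SD, n = 3; log2 -2.02). Among droplet coat and growth genes 5 of 10 were raised and 1 lowered. Fitm1, which helps droplets bud from the endoplasmic reticulum, rose from 2.59 ± 0.47 to 42.8 ± 9 CPM (SD, n = 3; log2 4.05). Triglyceride synthesis genes had 3 of 12 raised and 1 lowered. Mogat2, the second enzyme of the Mogat1 reaction, rose from 0.0994 ± 0.0711 to 4.34 ± 1.62 CPM (SD, n = 3; log2 5.37), but passed the filter only through the knockout libraries, so it had to differ, and it is among the 3 raised. Lipolysis genes had 4 of 8 raised, including Ces1g, a carboxylesterase (log2 2.26). Of 11 partners and regulators of the PPAR receptors 3 were lowered. These included Ppara, the main hepatic PPAR, at log2 -0.98, and Cebpb, a transcription factor that induces Pparg in adipocytes, which fell from 207 ± 36.4 to 73.1 ± 24.7 CPM (SD, n = 3). Of PPARa targets 4 of 12 were raised, such as Pdk4 (log2 1.41), and 3 lowered, such as Angptl4 (log2 -1.23).

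On the high fat diet 9 of 69 tested pathway genes were raised and 11 lowered, shares of 13% and 15.9% that lie near those of all genes tested (12.9% and 11.1%). Hsd17b13, a droplet enzyme, was the only one of 10 droplet coat and growth genes called, at a log2 of 1.07. Of 8 lipolysis genes 2 were raised and 2 lowered. Pnpla2, the lipase that G0s2 inhibits, fell by 0.70 on the log2 scale, and Ces1g rose by 1.46. In triglyceride synthesis 2 of 12 were raised and 2 lowered, among them Gpat3 (log2 1.38) and Lpin1 (log2 -2.73), whose product makes diacylglycerol. Fabp5, another binding protein, fell from 23.5 ± 4.73 to 1.51 ± 0.126 CPM (SD, n = 2; log2 -3.95), the opposite direction to Fabp4. In fatty acid uptake and activation 3 of 16 were raised and 4 lowered. Of 11 PPAR partners and regulators 1 was lowered (Ppargc1b, log2 -1.30), and PPARa targets 1 of 12 raised (Pdk4, log2 1.03) and 2 lowered.

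After hepatectomy 2 of 70 tested pathway genes were raised and 24 lowered, where 16.4% and 14.3% of all genes tested were. Lowered genes made up 7 of 16 in fatty acid uptake and activation, such as Lipc, the hepatic lipase (log2 -1.06), and 4 of 12 in triglyceride synthesis, such as Dgat2, which makes triglyceride (log2 -1.12). They made up 3 of 8 in lipolysis (Mgll, log2 -0.91), 4 of 11 among PPAR partners and regulators (Rxra, log2 -0.47), 3 of 12 PPARa targets (Angptl4, log2 -1.54) and 3 of 11 droplet coat and growth genes. The raised genes were Fitm1 (log2 0.93) and Lpl (log2 0.36). On cholic acid 1 of 70 tested was raised and 12 were lowered, where 2.27% and 2.5% of all genes tested were. Fitm1 fell from 20.7 ± 4.81 to 3.12 ± 0.746 CPM (SD, n = 3; log2 -2.73). In fatty acid uptake and activation 4 of 16 were lowered, including the transporter Slc27a2 (log2 -1.36) and Fabp1, the liver binding protein (log2 -1.74). PPARa targets had 4 of 12 lowered, including Cyp4a10 (log2 -1.17). Lipolysis had 1 of 8 lowered (Mgll, log2 -0.97), and no gene of the 11 tested in triglyceride synthesis passed. The raised gene was Ppargc1a (log2 1.08), a coactivator of the PPARs. Of the same 11 PPAR partners and regulators 1 was lowered, Cebpa (log2 -1.08). Droplet coat and growth genes had 2 of 12 lowered, Fitm1 and, at a log2 of -0.69, Cideb. TCPOBOP gave 0 calls among 69 (0% of all genes tested).

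**Figure D4:**
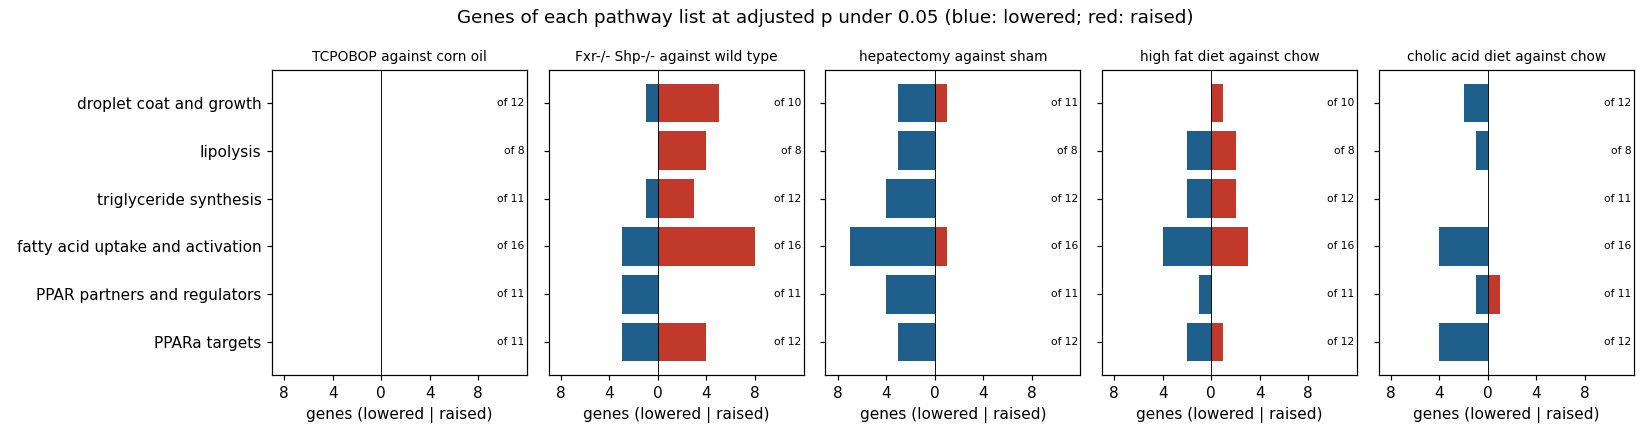
Number of genes raised (red, right of 0) and lowered (blue, left of 0) at an adjusted p under 0.05 in each of the 6 pathway lists and 5 comparisons, with the number tested at the right. In the knockout 8 of 16 uptake and activation genes are raised, and after hepatectomy 7 of the same 16 are lowered.

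Levels per length were set beside each other within each group as RPKM, the CPM divided by the exon length in kilobases. Plin2 was the highest of the 9 placed in every group, from 45.4 ± 2.29 RPKM with TCPOBOP (SD, n = 2) to 206 ± 71.9 RPKM in floxed mice on chow (SD, n = 3). In wild type liver the order was Plin2 at 64.6 ± 2.28, Plin5 at 50.7 ± 13.4, G0s2 at 25 ± 8.68 and Cd36 at 3.47 ± 0.768 RPKM (SD, n = 3), with Plin5 about 1 of its SDs below Plin2. Plin4 at 2.98 ± 0.769, Pparg at 2.16 ± 0.265 and Cidec at 1.42 ± 0.261 RPKM (SD, n = 3) followed, and Cd36 and Plin4 did not differ beyond their spread. Fabp4 was not placed in the order, because its annotated exon length of 4489 bases equals the whole gene, introns included, which lowers its RPKM. Mogat1 and Cidea were under 0.1 RPKM. In the knockout Cd36 moved to the second place at 86.7 ± 11.2 RPKM, behind Plin2 at 140 ± 14.4 and ahead of Plin5 at 47.8 ± 18.2 RPKM (SD, n = 3). G0s2 at 23.8 ± 10.2 and Cidec at 23.2 ± 22.4 RPKM (SD, n = 3) were not separable there. On the high fat diet Plin2 at 164 ± 38.6 and G0s2 at 140 ± 41.5 RPKM overlapped, and Cd36 followed at 43.5 ± 18.3 RPKM (SD, n = 2).

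For each member the gene with the most similar pattern was found over the 22 libraries outside the TCPOBOP experiment, as the Pearson correlation of log2 CPM relative to the controls of each experiment. Depth differs with the experiment and the labels name no batch, so the values describe likeness only. The closest gene was Tle3 for Cd36 (r = 0.956), Lgals1 for Mogat1 (0.956), 5031439G07Rik for Cidec (0.947), Dcaf4 for Pparg (0.943), Anxa2 for Fabp4 (0.920), Mfsd13a for Plin2 (0.917), Cuta for G0s2 (0.910) and Usp38 for Plin4 (0.901). Cidea, mostly at low counts, was closest to Mpdu1 (0.881). Plin5 had the weakest best match, Lsm14b (0.858).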

How the data were processed

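RNA from flash-frozen mouse liver or isolated hepatocytes was made into strand-specific TruSeq mRNA libraries, per the labels' protocols. The authors deposited 1 table of raw read counts per gene, whole numbers for 47643 Ensembl genes and 26 libraries. The submitters' processing notes name bcl2fastq 2.17.1.14, Trimmomatic, STAR 2.4.2a, Picard 1.119 and HTSeq and the builds GRCm38 and mm10; the role of strand in counting is not given in the sources used here. Lines for unassigned reads, 23% to 48.6% of each library's total, were left out. Symbols were matched for 47224 identifiers, and coordinates come from GENCODE's GRCm38 annotation.

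Each experiment was fitted with its own control in edgeR 4.0.16 (R 4.3.3, limma 3.58.1): filterByExpr at its defaults (a count of 10, a total of 15), TMM, the quasi-likelihood F test and Benjamini-Hochberg adjustment over all genes tested, called at 0.05. Differences between effects were tested in 1 fit over 4 groups. Alternatives were a single fit over all 26 libraries, a replicate block, a filter at a mean count of 10 or none, DESeq2 1.42.0 (its size factors, and its Wald test) and leaving out each library. Likeness used a pseudocount of 0.1 CPM. The members, lists and markers were chosen with earlier results of these data known. Every member is named; of each pathway list the genes named are among the 2 raised and 2 lowered with the smallest adjusted p and an average log2 CPM of at least 0. The promoter search and the comparison of library order were chosen after the data were seen. On simulated counts the fit recovered 86.7% of the genes given a seeded log2 change of 1.5 in the high fat comparison (13633 genes), 88.4% in the knockout comparison (13292 genes) and 72.3% for the difference between the high fat and knockout effects (13721 genes). It also called unchanged genes, 39 beside 170 seeded genes in the high fat comparison, 23 beside 175 in the knockout and 8 beside 141 for the difference. In the high fat and knockout comparisons that is more false calls than an adjusted p under 0.05 implies. The biological coefficient of variation was 24.7% for TCPOBOP, 14.4% for the knockout, 15.6% for hepatectomy, 13.1% for the high fat diet and 26.4% for cholic acid.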

Additional observations from a re-analysis of the deposited data

Results flagged for a closer look

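These results stand out because the same gene responded differently in 2 experiments, by a test of the difference itself (edgeR's quasi-likelihood test, adjusted p under 0.05). Against the knockout, the high fat effect was lower by a log2 of -1.02 for Pparg, the receptor, and -0.70 for Plin2, the droplet coat. These were 2 of 9 members tested, where 16.1% of all genes tested were called in either direction. Against hepatectomy the high fat effect was higher by 4.43 for Cd36, 3.17 for Cidec and 1.18 for Fabp4. These were 3 of 9 members tested, near the 29.2% of all genes tested that were called in either direction. Against cholic acid the high fat effect was higher by 4.49 for Cd36, 2.14 for Cidec, 6.65 for Mogat1 and 3.17 for G0s2. The Mogat1 value rests on 2 to 4 counts per cholic acid library. With Mogat1 these were 4 of 9 members tested, where 6.43% of all genes tested were called. The Plin2 and Fabp4 calls were lost in most fits without 1 library, and the Cidec call against cholic acid in some. The single fit over all 26 libraries ended the Pparg, Plin2 and Fabp4 calls. The experiments also differ in tissue, since the high fat libraries are isolated hepatocytes and the others whole liver. Age differs too, as does feeding from the knockout and hepatectomy experiments and strain from hepatectomy. Both groups of the cholic acid experiment carry floxed alleles of Fxr and Shp. None of these can be told apart from treatment in these differences.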

How the results depend on the processing

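No member changed sign past the threshold under any alternative run. Of all 901 alternative member values, 31 had the other sign without being called in either fit, 30 of them in fits without 1 library. Over 413 member values under the 6 alternative settings, 389 kept direction and side of the threshold, 8 lost the call and 15 gained it. Of 488 member values without 1 library, 410 kept both, 29 lost the call and 19 gained it. DESeq2's Wald test called 91 genes for TCPOBOP, 1445 for cholic acid and 1942 for the difference between the high fat and cholic acid effects. Without a filter 955 genes were called on cholic acid, 2 members there, and 4 members in the difference between the high fat and knockout effects. A single fit over all 26 libraries called 9 genes for TCPOBOP, 1735 for the high fat diet and 3132 for cholic acid (3 members). It called 1282 genes and 0 members for the difference from the knockout, 2666 genes for that from hepatectomy and 2435 for that from cholic acid. That fit ended the calls of Plin5 (adjusted p 0.138) and G0s2 (0.374) on the high fat diet, Plin4 in the knockout (0.189) and Cidec after hepatectomy (0.133), and of the differences of Pparg (0.16) and Plin2 (0.348) from the knockout and Fabp4 (0.108) from hepatectomy. The causes were not tested.

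Leaving out 1 library at a time gave 3969 to 6024 genes and 6 to 7 members in the knockout, 2554 to 4217 genes and 1 to 3 members after hepatectomy, 1141 to 2644 genes and 3 to 8 members for the high fat diet, 189 to 1345 genes and 1 to 3 members on cholic acid, and 0 to 1233 genes and 0 to 3 members with TCPOBOP, the highest of both without the library labelled corn oil 1. For the differences it gave 1269 to 2768 genes and 1 to 3 members from the knockout, 2804 to 4370 genes and 2 to 5 members from hepatectomy, and 76 to 1958 genes and 3 to 5 members from cholic acid. Where 1 library was left in a group, it was assumed to vary like the others.

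The labels give same-numbered libraries only the number in common. Their deviations correlated at -0.208 to 0.004 in the knockout, -0.075 to 0.119 after hepatectomy and 0.089 to 0.158 on cholic acid. Differently numbered pairs gave -0.071 to 0.116, -0.173 to 0.135 and -0.109 to -0.038 in that order. The high fat and TCPOBOP experiments gave 0.137 and 0.133. With 2 libraries a group their differently numbered pairs must mirror these, at -0.137 and -0.133. These values do not settle whether the libraries were paired. A replicate block gave calls for 4763 genes and 7 members in the knockout, 3664 and 2 after hepatectomy, 3693 and 9 for the high fat diet, 480 and 1 for cholic acid, and 0 and 0 with TCPOBOP. The block gave 1858 genes and 2 members for the difference from the knockout, 3762 and 2 for that from hepatectomy, and 446 and 4 for that from cholic acid. On the high fat diet Plin2 (log2 0.41, adjusted p 0.0445) and Plin4 (0.51, adjusted p 0.0117) were called with the block.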

Other observations

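Plin4 and Plin5, which lie side by side on chromosome 17, often had their lowest and highest levels in the same library of a group. The library with the lowest Plin4 was also the one with the lowest Plin5 in 9 of the 10 groups, with TCPOBOP as the exception, and the highest was shared in 8. Over the other 27 pairs of the 8 members detected in every library, the lowest library was shared in a median of 5 groups and in at most 7. In the 2 experiments with 2 libraries a group, a shared lowest library also fixes the highest. Over the 22 libraries outside the TCPOBOP experiment, relative to the controls, the pair had a Pearson r of 0.48. On the high fat diet Plin5 was lowered (log2 -1.28) and Plin4 was not (log2 0.52). The pattern was chosen after the values were seen and carries no test, and libraries also differ in depth and cell content. The third knockout library held the highest knockout level of Cidea, Cidec, Plin4, Plin5, Mogat1, Fabp4 and Cd36 and the lowest of Plin2 and G0s2. Cd36 and Fabp4 had the same highest library in 8 of the 10 groups.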
